A study of Oryctolagus cuniculus with 16 samples.

Results

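PLS3, PDLIM5, ITGB1BP2 and UTRN are genes that tie the actin cytoskeleton to itself, to integrins or to the surface membrane. They were taken as the 4 rows of that name among 13788 gene symbols, and were chosen by their TMM-normalized CPM (a gene's counts relative to the total of its library, adjusted between libraries by the trimmed mean of M values) in these same 16 libraries, with the difference between ligated and sham rabbits already known. Their levels by flow, layer and location are therefore given as a description and without p-values, and nothing is read from how many of the 4 passed a test.

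The libraries came from female New Zealand white rabbits, of which rabbits 3 and 4 had a sham operation and rabbits 5 and 6 had both common carotid arteries ligated, an operation that raises flow in the basilar artery. Tissue was taken 24 h after surgery, when the straight basilar artery (BA) and the basilar terminus (BT), the bifurcation at its end, were sectioned and the intima and the media were cut out by laser. Each rabbit gave 1 library per layer and location, so that every combination of location, layer and flow held 2 libraries from 2 rabbits. An intimal strip was wider than the endothelium, sections were pooled for each library, and the RNA was amplified before sequencing.

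PLS3 encodes plastin 3, a calcium-regulated protein that bundles actin filaments. PDLIM5 encodes a protein with a PDZ and several LIM domains that binds alpha-actinin at actin anchoring sites and recruits protein kinase C. ITGB1BP2 encodes melusin, which binds the cytoplasmic tail of the beta1 integrin and is known from heart and skeletal muscle as a component of the response to stretch. UTRN encodes utrophin, the close relative of dystrophin that links actin filaments to the dystroglycan complex and through it to the basement membrane. In an arterial wall such links carry the load between contracting smooth muscle cells and their matrix.

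Each intimal library held 5211886 to 17686105 counts on named genes and each medial library 2154863 to 11219236. The lowest count of any of the 4 genes was 121, for ITGB1BP2, and the others had at least 332 counts (UTRN), 1510 counts (PLS3) and 5345 counts (PDLIM5) in every library. The 4 genes thus passed the filter on low values in every comparison. Rabbits of a group differed by more than counting error, with a Pearson chi-square of 22.5 to 456 when divided by its degrees of freedom. The layers overlapped in their endothelial but not in their smooth muscle markers. Summed over 9 endothelial markers, the level was 1219.8 to 5854 CPM in the intimal and 439.5 to 1598 CPM in the medial libraries, and summed over 8 smooth muscle markers it was 14932 to 92618 CPM in the intimal and 93832 to 151630 CPM in the medial libraries. The intimal libraries therefore held smooth muscle RNA, and in such tissue samples fewer cells of a type cannot be told apart from less RNA per cell.

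PLS3, PDLIM5 and ITGB1BP2 had higher CPM in both ligated than in both sham libraries in each of the 4 tissues, and UTRN had lower CPM in both ligated than in both sham libraries in each of them. Among 8702 genes with a mean above 1 CPM, 3.36% were higher and 2.87% were lower in this way. The 4 genes were chosen for these values, so nothing is read from their place in that background.

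**Figure D1:**
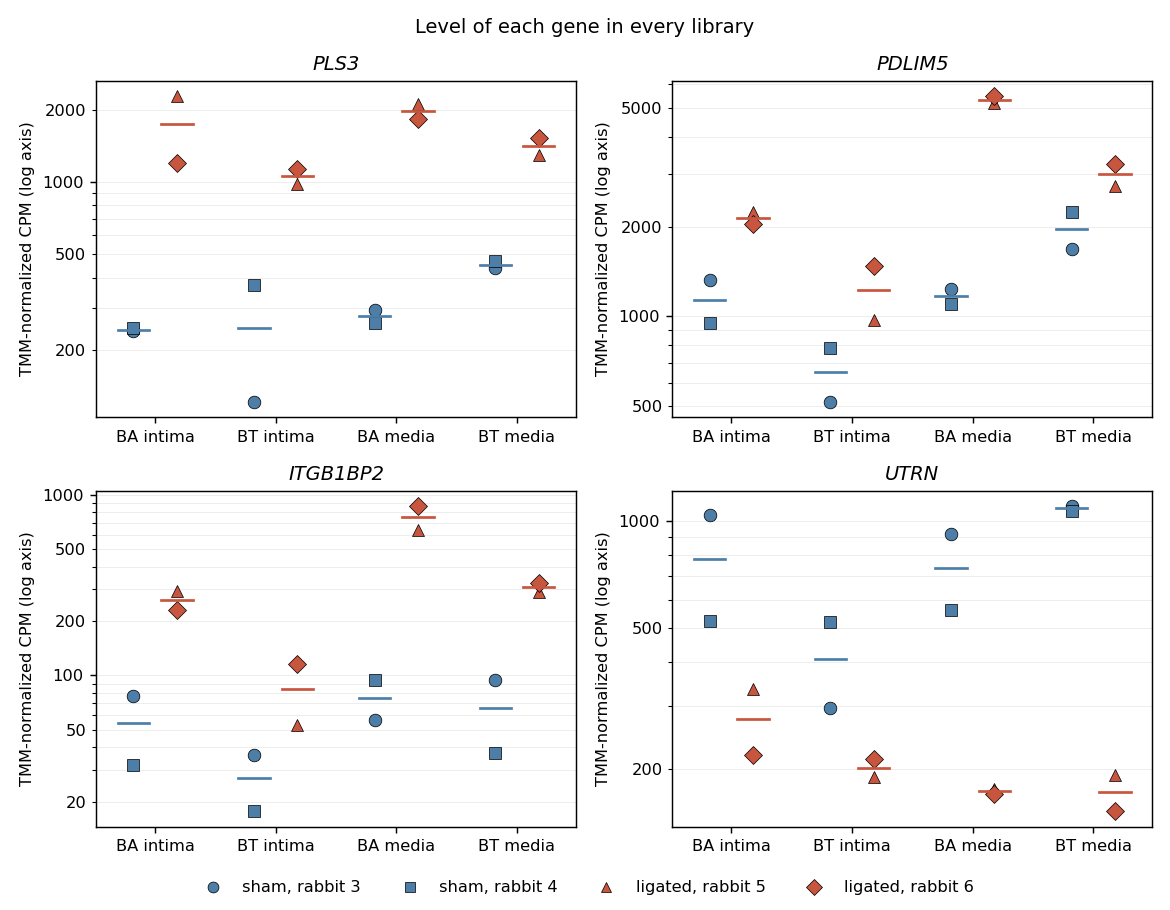
TMM-normalized CPM on log axes of PLS3, PDLIM5, ITGB1BP2 and UTRN in the 4 tissues, with 1 point per library (sham blue, ligated red, marker shape by rabbit) and a line at the mean of the 2 rabbits. The ligated points lie above the sham points in every tissue for PLS3, PDLIM5 and ITGB1BP2 and below them for UTRN, and all 8 ligated libraries exceed all 8 sham libraries only for PLS3.

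The actin bundler PLS3 separated the flow groups over all tissues. Its level in the BA intima was 240.1 CPM in rabbit 3 and 245 CPM in rabbit 4 with sham surgery, and 2280.1 CPM in rabbit 5 and 1206 CPM in rabbit 6 with ligation. In the BT intima the sham levels were 121 and 371 CPM and the ligated levels 982 and 1135 CPM. The sham intima of the BT thus spread more between rabbits than that of the BA. Medial levels at the BA were 292 and 259 CPM with sham surgery, which stood against 2119 and 1827 CPM with ligation, and at the BT 439 and 467 CPM stood against 1303 and 1523 CPM. The highest of the 8 sham libraries had 467 CPM and the lowest of the 8 ligated libraries 982 CPM, so the groups did not overlap over the whole artery, a pattern shown by 1.31% of 8702 genes. The fitted log2 difference, ligated minus sham, was 2.86 ± 0.29 (SE, n = 2 and 2 rabbits) for the media and 2.85 ± 0.53 for the intima of the BA, folds of 7.26 and 7.21. At the BT it was 1.65 ± 0.30 for the media and 2.10 ± 0.60 for the intima, folds of 3.14 and 4.29. The value was larger at the BA in both layers, a difference that was not tested, and the SE was larger in the intima at both locations.

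PDLIM5, the anchor of alpha-actinin and protein kinase C, differed most in the BA media. There it had 1235 and 1099 CPM in sham rabbits 3 and 4 and 5182 and 5475 CPM in ligated rabbits 5 and 6, a log2 difference of 2.21 ± 0.24 (SE) and a fold of 4.64. At the BT, the media of the same rabbits had 1678 and 2238 CPM, and 2745 and 3241 CPM, a log2 difference of 0.62 ± 0.29 and a fold of 1.54. The sham level was thus higher and the ligated level lower at the BT than at the BA. Intimal levels at the BA were 1328 and 951 CPM with sham surgery and 2238 and 2045 CPM with ligation, and at the BT 518 and 783 CPM, and 976 and 1471 CPM. The log2 difference of the intima was 0.91 ± 0.47 at the BA and 0.91 ± 0.44 at the BT, a fold of 1.88 at both. Across the 4 intimal libraries of each flow group the ranges overlapped, since the sham BA of rabbit 3 exceeded the ligated BT of rabbit 5. Across the media they did not overlap.

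ITGB1BP2 rested on the fewest counts and had a fold of 10.2 in the BA media. Melusin RNA stood there at 56.6 and 94.1 CPM in the sham and at 639 and 868 CPM in the ligated animals, a log2 difference of 3.35 ± 0.39 (SE). The BT media held 94.4 and 37.3 CPM against 291 and 323 CPM, a log2 difference of 2.24 ± 0.44 and a fold of 4.71. The sham media did not differ between locations beyond the spread of the rabbits, while the ligated media of the BA exceeded that of the BT. For the intima of the BA, 77.3 and 32.1 CPM stood against 295 and 230.0 CPM, a log2 difference of 2.25 ± 0.56. For that of the BT, 36.5 and 17.7 CPM stood against 53.2 and 115 CPM, a log2 difference of 1.63 ± 0.62. The ligated BT intima of rabbit 5, at 53.2 CPM, lay below the sham BA intima of rabbit 3, so that the intimal ranges overlapped over both locations, as they did not over the media.

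Because melusin is known from striated muscle, markers of that tissue were set beside it. The sum over 8 striated muscle markers was 82.0 to 161 CPM in the sham and 102 to 204 CPM in the ligated BA media, and 65.1 to 88.6 CPM and 51.7 to 55.2 CPM in the BT media. MYH7 and TNNT3 were at 0 in 16 of 16 libraries, MB was at 0 in 15, MYL2 in 13 and TNNT2 in 7. CKM and ACTC1 were at 0 in 2 libraries each, and ACTA1 in 0. The median CPM, scaled by library size alone, was 33.4 for ACTA1, 14.0 for CKM and 0.266 for ACTC1. MYH6, MYH2, TNNI3 and TTN were not analysed here. The sums of sham and ligated libraries overlapped in the BA media and were lower with ligation in the BT media, and the part of these markers in the difference of ITGB1BP2 was not tested.

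UTRN ran in the opposite direction. Utrophin RNA in the BT media stood at 1103 and 1069 CPM in the sham and at 192 and 152 CPM in the ligated animals, a log2 difference of -2.65 ± 0.31 (SE), or 6.29-fold lower. The BA media held 917 and 561 CPM against 175 and 170.4 CPM, a log2 difference of -2.08 ± 0.35, or 4.22-fold lower. The 4 ligated medial libraries lay close together and far under the lowest sham library. For the intima of the BA, 1043 and 523 CPM stood against 336 and 218 CPM, a log2 difference of -1.50 ± 0.52. For that of the BT, 297 and 518 CPM stood against 189 and 213 CPM, a log2 difference of -1.02 ± 0.43. The intimal groups did not overlap within a location, but the sham BT of rabbit 3, at 297 CPM, lay below the ligated BA of rabbit 5, at 336 CPM.

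Over 4 against 4 libraries of a layer, all 4 genes separated the flow groups in the media, against 7.33% of 8702 genes that were higher and 7.5% that were lower in this way. In the intima PLS3 alone of the 4 did so, against 6.07% of genes that were higher.

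**Figure D2:**
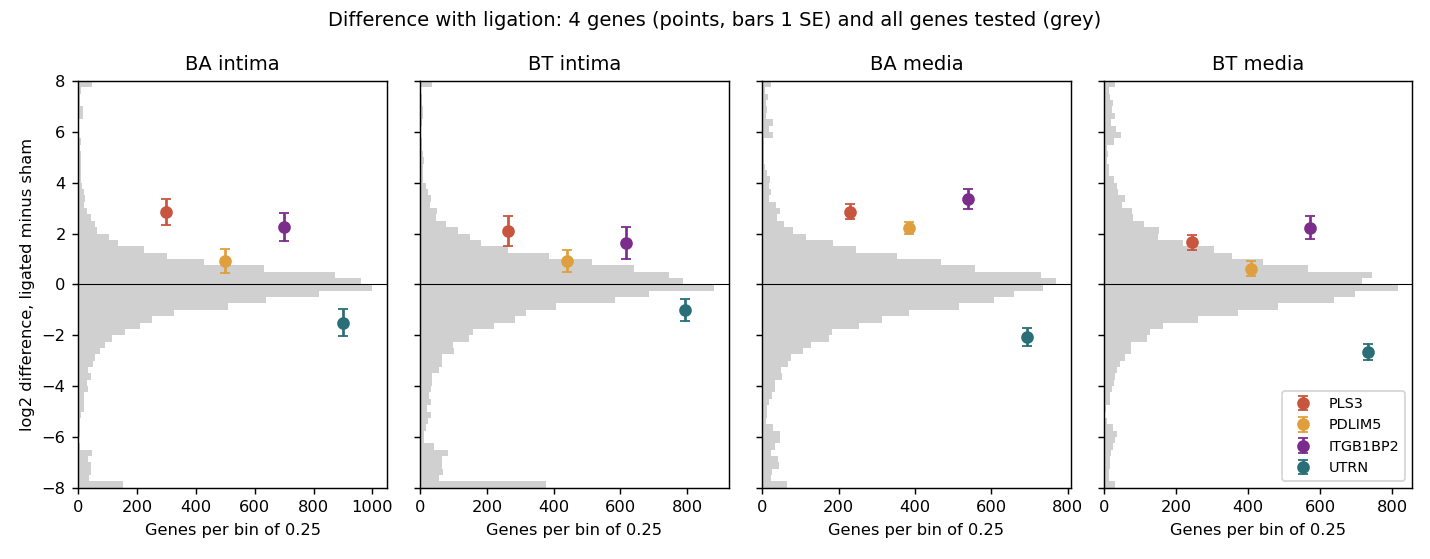
Fitted log2 difference, ligated minus sham, of each gene (points, bars 1 SE, n = 2 and 2 rabbits) against a histogram of all genes tested (grey, genes per bin on the horizontal axis, values beyond the axis counted in the outermost bins) in 4 tissues. PLS3 at 2.86 and ITGB1BP2 at 3.35 lie in the upper tail in the BA media, UTRN at -2.65 lies in the lower tail in the BT media, and PDLIM5 at 0.62 lies inside the bulk there.

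The place of each difference among all genes is given as a description, and nothing is read from it. The median log2 difference of all genes was -0.14 for the BA media, 0.03 for the BT media, -0.10 for the BA intima and -0.13 for the BT intima. In the BA media, 3.14% of 8800 genes tested had a larger difference than ITGB1BP2, 3.89% a larger one than PLS3 and 5.36% a larger one than PDLIM5, and 12.8% had a lower one than UTRN. At the BT, 30.5% of 8783 medial genes tested had a larger difference than PDLIM5, and 5.90% had a lower one than UTRN. Of intimal genes, 2.92% had a larger difference than PLS3 at the BA and 5.004% at the BT.

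By edgeR's quasi-likelihood F test with Benjamini-Hochberg adjustment over all genes tested (q < 0.05), 4 of the 4 genes were called in the BA media, where 0.807% of genes were called, and 3 of the 4, without PDLIM5, in the BT media, where 2.32% were called. Nothing is read from these counts, since the contrast had chosen the genes. With any rabbit left out, 0 of the 4 were called in the BA media. Of those in the BT media, 0 were left without rabbit 6 and 2 without rabbit 5. In the intima 0 of the 4 were called at either location, where 0% of 8974 genes at the BA and 0% of 9273 genes at the BT were called by edgeR, 530 and 1080 genes had an unadjusted p under 0.05, and DESeq2 called 122 and 613 genes. DESeq2's calls held PLS3 and ITGB1BP2 in the BA intima and PLS3 in the BT intima. By edgeR, 2 of the 4 were called in the BA intima without rabbit 3 and 1 without rabbit 4, and 1 in the BT intima without rabbit 4.

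The ratio of the counts of a pair of genes within a library does not depend on how libraries are scaled. The ratio of PLS3 to UTRN was 0.230 to 0.717 (median 0.423) in the 8 sham libraries and 5.18 to 12.1 (median 6.78) in the 8 ligated libraries. That of PDLIM5 to UTRN was 1.27 to 2.09 in sham and 5.16 to 32.1 in ligated libraries, and that of ITGB1BP2 to UTRN 0.0342 to 0.168 and 0.281 to 5.09. None of these 3 ratios overlapped between the flow groups, although PDLIM5, ITGB1BP2 and UTRN each did so alone over 8 against 8 libraries. Nothing is read from this, since the genes of each ratio were chosen with their opposite differences in these same libraries known. The share of other gene pairs that separate in this way was not counted. Among the genes that were higher with ligation, the ratio of PLS3 to PDLIM5 was 0.181 to 0.475 in sham and 0.334 to 1.02 in ligated libraries, which overlapped, as did the ratio of ITGB1BP2 to PDLIM5.

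**Figure D3:**
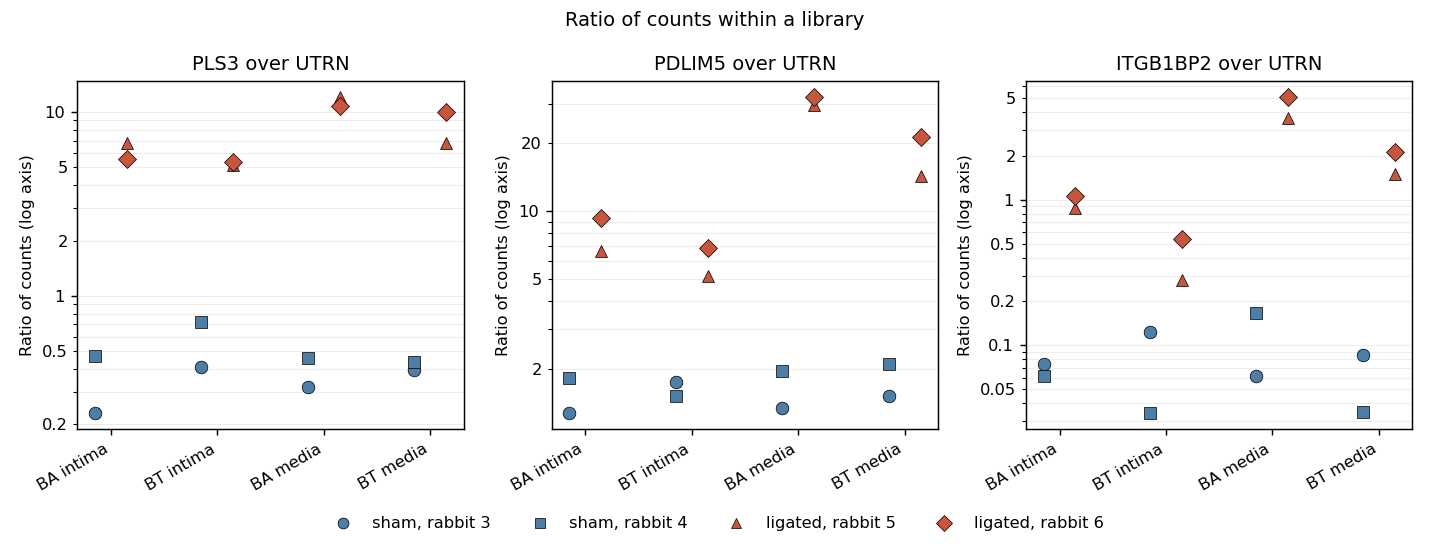
Ratio of the counts of PLS3, PDLIM5 and ITGB1BP2 to those of UTRN within each of the 16 libraries, on log axes, by tissue (sham blue, ligated red, marker shape by rabbit). Ligated and sham points are separate for each ratio, with the ratio of PLS3 to UTRN at most 0.717 in sham and at least 5.18 in ligated libraries.

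Ordered by group mean, PLS3 ran from the ligated BA media (1973 ± 206 CPM, SD, n = 2) through the ligated BA intima (1743 ± 759), BT media (1413 ± 155) and BT intima (1059 ± 109) to the sham BT media (453 ± 20.2), BA media (276 ± 23.4), BT intima (246 ± 177) and BA intima (243 ± 3.67). The first 3 groups of this order overlapped with their neighbours, as did the last 3. PDLIM5 ran from the ligated BA media (5328 ± 207 CPM) and BT media (2993 ± 351) down to the sham BT intima (650.02 ± 187), and its sham BT media (1958 ± 396) lay beside its ligated BA intima (2141 ± 137), with overlapping ranges. ITGB1BP2 had its ligated BA media (753 ± 161 CPM) apart from all other groups and its 4 sham groups, from 75.3 ± 26.5 to 27.1 ± 13.3 CPM, each overlapping with the next in the order. UTRN began with the sham BT media (1086 ± 24.4 CPM), which stood apart from the sham BA intima (783 ± 367) and BA media (739 ± 251), and ended with the ligated BA media (173 ± 3.36) and BT media (172 ± 28.3), which overlapped.

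The layers were compared within the 8 pairs of intima and media from the same rabbit and location. These came from 4 rabbits, so pairs of the same rabbit were not independent. PLS3 was lower in the intima in 7 of 8 pairs, at 75.9% ± 23.4 of its medial level (SD, n = 8 pairs), with the ligated BA of rabbit 5 as the exception, at 108%. PDLIM5 was lower in the intima in 7 of 8 pairs as well, at 52.7% ± 28.3. Its ligated pairs lay between 35.6% and 45.4%, whereas its sham pairs ran from 30.8% in the BT of rabbit 3 to 108% in the BA of rabbit 3. ITGB1BP2 was lower in 7 of 8 pairs, at 48.0% ± 37.1, and its ligated pairs had a mean of 31.7% ± 11.97 against 64.2% ± 48.6 in the sham pairs. In all 3 genes the mean over the ligated pairs differed from that over the sham pairs by less than the SD of the sham pairs.

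UTRN had no common direction between the layers. It was lower in the intima in 3 of 4 sham pairs, with a mean of 70.6% ± 39.9 (SD, n = 4 pairs), and in 1 of 4 ligated pairs, with a mean of 140% ± 39.0. The sham BT pairs were lowest, at 26.9% and 48.4%, and the ligated BA of rabbit 5 was highest, at 192%. In the fit over 16 libraries with location and flow as terms, the log2 difference, intima minus media, was -0.42 ± 0.21 (SE) for PLS3, -1.07 ± 0.21 for PDLIM5, -1.29 ± 0.28 for ITGB1BP2 and -0.09 ± 0.27 for UTRN. The value of UTRN turned to 0.45 in the ligated libraries alone and to 0.11 with library size alone as the scale, to 0.12 without rabbit 3 and to 0.05 without rabbit 4, and was -0.65 in the sham libraries alone. The median of all genes was 0.07. In that fit 7.17% of 10077 genes tested were called, 3.17% as lower in the intima.

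**Figure D4:**
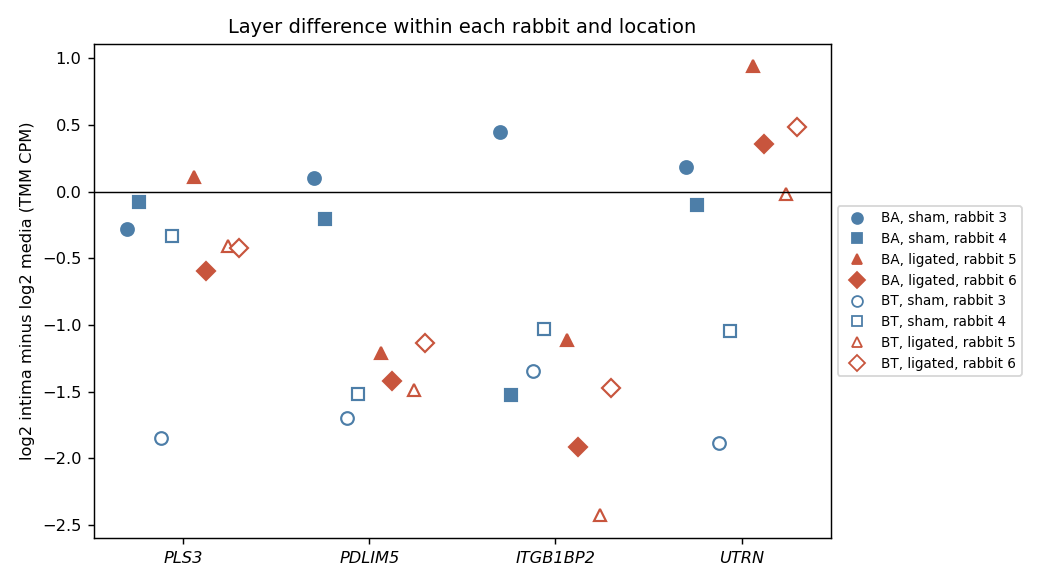
Log2 level in the intima minus that in the media (TMM-normalized CPM) for each gene, 1 point per rabbit and location (BA filled, BT open, sham blue, ligated red). Points below the line are lower in the intima, as in 7 of 8 pairs for PLS3, PDLIM5 and ITGB1BP2 and 4 of 8 for UTRN.

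Between locations, within each rabbit, the media changed order with flow for PLS3 and PDLIM5. PLS3 in the media of the BT was 1.501 and 1.80 times that of the BA in the sham rabbits, and 0.615 and 0.833 times in the ligated rabbits. The ratio for PDLIM5 was 1.36 and 2.04 in the sham and 0.530 and 0.592 in the ligated rabbits. For both genes the sham media was thus higher at the BT and the ligated media lower there, in all 4 rabbits. The share of all genes that change order in this way was not counted. Nothing is read from this order, since the genes were chosen by these values. ITGB1BP2 had ratios of 1.67 and 0.396 in the sham and 0.455 and 0.372 in the ligated rabbits, with no common direction in the sham animals. UTRN in the media had 1.204 and 1.905 in the sham and 1.096 and 0.892 in the ligated rabbits. In the intima PDLIM5, ITGB1BP2 and UTRN were lower at the BT than at the BA in 4 of 4 rabbits, and PLS3 in 3 of 4 rabbits. The ratios were 0.390 to 0.823 for PDLIM5, 0.181 to 0.553 for ITGB1BP2 and 0.285 to 0.989 for UTRN. For UTRN, rabbits 4 and 6 had 0.989 and 0.976, close to no difference. The share of all genes lower in this way was not counted. The smooth muscle sum was 25367 to 27189 CPM in the sham BT intima and 45091 to 92618 CPM in the sham BA intima. With ligation it was 14932 to 63373 CPM and 56955 to 57984 CPM. Its part in these ratios was not tested.

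Cell type markers moved with ligation as well. The sum over 8 fibroblast and leptomeningeal markers was 58404 to 95167 CPM in the sham and 23265 to 35493 CPM in the ligated BA media, and 29735 to 30320 CPM and 3740 to 10823 CPM in the BT intima. It was 59475 to 81565 CPM and 46572 to 59575 CPM in the BT media. In the BA intima it was 21082 to 45049 CPM and 16897 to 22929 CPM, and the groups overlapped in these last tissues. MGP had the highest median of the 8 markers (25864 CPM, scaled by library size alone). All 8 had a negative log2 difference in the BA media and BT intima, as had 7 in the BT media and 6 in the BA intima. By edgeR, 3 of these 8 markers in the media of the BA and 1 in that of the BT were lower with ligation (q < 0.05). UTRN was lower with ligation in the same tissues, and the part of these markers in its difference was not tested. The sum of the smooth muscle markers was higher in the ligated (135917 to 151630 CPM) than in the sham BA media (100353 to 108193 CPM). It overlapped between the groups in the BT media. ACTA2 had the highest median of the 8 markers (62260 CPM, scaled by library size alone). In the BA media 4 of the 8 had a positive and 4 a negative log2 difference, with a median of 0.01. The part of this sum in the differences of PDLIM5 and ITGB1BP2 was not tested. Of 8 smooth muscle markers, 2 were lower with ligation in the BT media by the same test and 0 were called in the other tissues. Of other markers, 8 to 9 of 9 endothelial, 2 to 4 of 8 striated muscle, 7 to 8 of 9 macrophage and 1 to 2 of 7 brain parenchymal ones passed the filter on low values in a comparison, and none of those tested was called. The macrophage sum was 204 to 270.3 CPM in the sham and 60.3 to 154 CPM in the ligated BA media, and 132 to 789.9 CPM and 55.3 to 121 CPM in the BT intima. It was lower in the sham than in the ligated BT media, at 56.1 to 63.2 CPM against 84.1 to 138 CPM, and overlapped in the BA intima. The part of macrophage RNA in the differences of the 4 genes was not tested. The brain parenchymal sum was at most 8.23 CPM, with AQP4 and MOG at 0 in all 16 libraries.

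The genes around these 4 were taken as 6 lists of 51 genes in all, of which 43 were in the table. ACTN4, FLNA, FSCN1, PDLIM2, ITGB1BP1, SUGT1, DMD and DTNB were not analysed here. Of 42 panel genes tested in the BA media, 1 was higher with ligation (edgeR, q < 0.05) and 0 were lower, and in the BT media 3 of 42 were higher and 2 lower. The median log2 difference of the panel in the media was 0.01 at the BA and -0.26 at the BT, against -0.14 and 0.03 for all genes. In the intima 0 of 43 were called at either location. The call in the BA media was lost with any rabbit left out, and the 5 in the BT media became 2 without rabbit 5, 0 without rabbit 6, 8 without rabbit 3 and 10 without rabbit 4.

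ITGA5, the alpha subunit of the fibronectin receptor, was called in both media. It had 141 and 271 CPM in the sham and 863 and 958 CPM in the ligated BA media, a log2 difference of 2.18 ± 0.37 (SE, q = 0.0472), and 176 and 249 CPM against 871 and 900 CPM in the BT media, a log2 difference of 2.06 ± 0.32 (q = 0.00680). In the intima its log2 difference was 1.18 ± 0.49 at the BA and 1.68 ± 0.55 at the BT, and was not called. ITGA8, the alpha subunit of another beta1 integrin of smooth muscle, was lower in the BT media, with 286 and 427 CPM against 145 and 112 CPM (log2 difference -1.47 ± 0.35, q = 0.0492). The shared beta subunit ITGB1, to whose tail melusin binds, had 1279 and 901 CPM against 543 and 831 CPM there and was not called (log2 difference -0.66 ± 0.33, q = 0.356). Of this list of melusin relatives and beta1 integrin partners, 6 of 8 genes were in the table. CHORDC1, the paralog of melusin without its restriction to muscle, lay between 10.96 and 93.0 CPM in the 16 libraries and was not called in any comparison, with log2 differences in the media of 1.49 ± 0.66 at the BA and -0.32 ± 0.56 at the BT.

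Among 6 measured actin crosslinkers and bundlers, ACTN1 and FLNC were higher in the BT media. ACTN1, the non-muscle alpha-actinin, had 114 and 106 CPM in the sham and 462 and 372 CPM in the ligated rabbits (log2 difference 1.93 ± 0.33, q = 0.0104). Its sham level in the BA media of 132 CPM in rabbit 3 and 667 CPM in rabbit 4 enclosed both ligated levels, 558 and 550.4 CPM. FLNC, the muscle filamin, had 11.9 and 11.6 CPM against 93.2 and 214 CPM in the BT media (log2 difference 3.72 ± 0.52, q = 0.00409), and its log2 difference of 2.72 ± 0.73 in the BA media was not called (q = 0.154). Of the other plastins, PLS1, the intestinal plastin, was at most 37.6 CPM and LCP1, the leukocyte plastin, at most 8.86 CPM in any library, and neither was called where it was tested. Both were at 0 CPM in at least 1 library. At such levels, and beside a PLS3 chosen with its difference known, their lack of separation between flow groups cannot be compared with that of PLS3.

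None of the 5 measured PDZ-LIM relatives of PDLIM5 was called with ligation. Their median log2 difference in the media was -0.57 at the BA and -0.33 at the BT. PDLIM7, which like PDLIM5 carries a PDZ domain and several LIM domains, had 781 and 1187 CPM in the sham and 584 and 713 CPM in the ligated BA media. Its log2 difference there was -0.57 ± 0.31 (q = 0.462), opposite in sign to the 2.21 ± 0.24 of PDLIM5. In the BA intima it was -0.21 ± 0.43, also opposite. At the BT it was 0.08 ± 0.29 in the media and 0.73 ± 0.49 in the intima, of the same sign as PDLIM5.

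Of 12 measured genes of the dystrophin-glycoprotein complex, 1 was called. SSPN, the tetraspanin-like member that sits beside the sarcoglycans, had 335 and 390.2 CPM in the sham and 94.7 and 84.3 CPM in the ligated BT media (log2 difference -2.01 ± 0.33, q = 0.00924). Its BA media had 238 and 294 CPM against 72.8 and 118 CPM (log2 difference -1.44 ± 0.39, q = 0.151). The sign there was that of UTRN. DAG1, the dystroglycan to which utrophin binds, had 472 and 702 CPM against 545 and 512 CPM in the BT media (log2 difference -0.15 ± 0.31, q = 0.864) and 268 and 600.2 CPM against 551 and 623 CPM in the BA media (log2 difference 0.46 ± 0.40, q = 0.627). The receptor's RNA therefore showed no call where that of UTRN was 6.29-fold and 4.22-fold lower. None of 12 focal adhesion linkers was called with ligation.

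**Figure D5:**
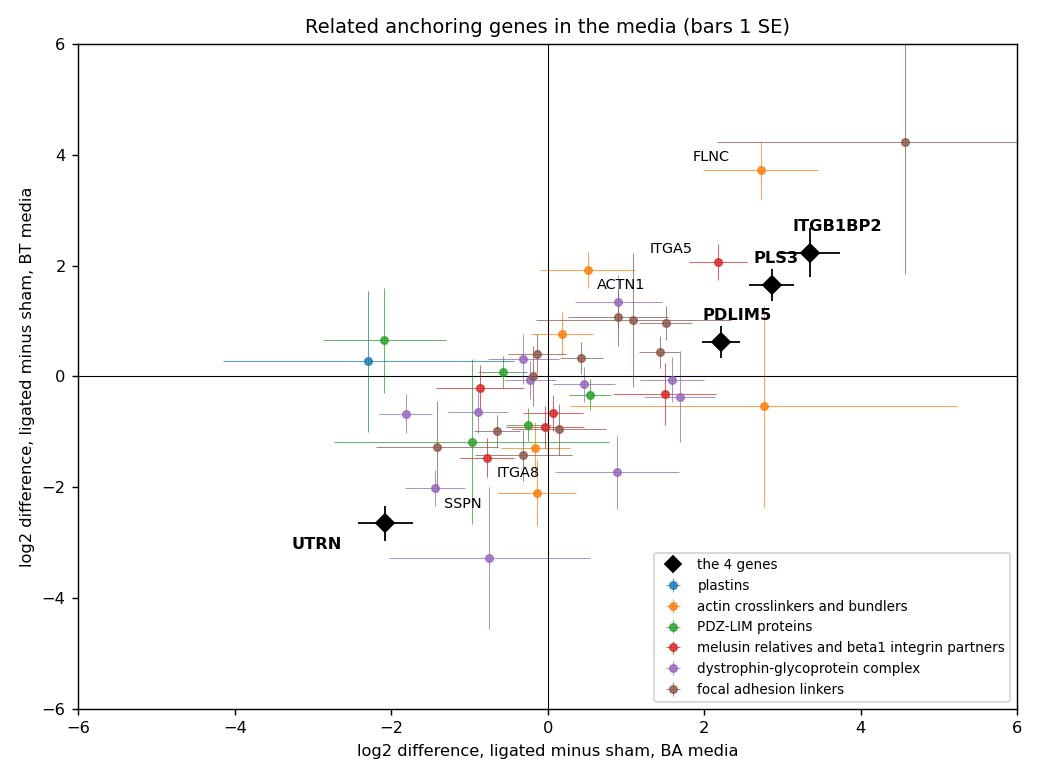
Log2 difference, ligated minus sham, in the BA media (horizontal) and the BT media (vertical) of 41 panel genes tested in both, coloured by list, and of the 4 genes (black diamonds), with bars of 1 SE (n = 2 and 2 rabbits per comparison). UTRN lies at -2.08 and -2.65 near SSPN at -1.44 and -2.01, and PLS3 and ITGB1BP2 lie in the upper right with FLNC and ITGA5.

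Between the layers, 14 of 43 panel genes were called, 2 as higher and 12 as lower in the intima (edgeR over 16 libraries, q < 0.05). That fit held no term for the rabbit. The panel's median log2 difference, intima minus media, was -0.72, against 0.07 for all genes. DAG1 was lower, at -1.40 ± 0.20 (SE, q = 0.000994), whereas its partner UTRN stood at -0.09. SSPN at -0.94 ± 0.25 and SGCA, a sarcoglycan, at -0.84 ± 0.24 were also lower in the intima. PDLIM1 at -1.05 ± 0.21, PDLIM3 at -0.84 ± 0.17 and PDLIM7 at -0.74 ± 0.19 were lower in the intima with q from 0.00747 to 0.0263, beside -1.07 for PDLIM5. ITGA7, the laminin receptor subunit of muscle, and ITGA5 were lower, at -1.38 ± 0.31 and -0.87 ± 0.25. FLNC was lower, at -2.43 ± 0.47 (q = 0.00563). Among focal adhesion linkers TLN2, a talin, was higher, at 1.68 ± 0.31, and ILK, the integrin-linked kinase, and FERMT2, a kindlin, were lower, at -0.96 ± 0.21 and -0.90 ± 0.15. The number of panel genes called fell to 8 without rabbit 4, 6 without rabbit 5 and 3 without rabbit 6, and to 0 in the sham libraries alone.

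Over the 16 libraries, log2(CPM + 1) of PLS3 correlated with that of PDLIM5 at Pearson r = 0.81, of PLS3 with ITGB1BP2 at 0.81 and of PDLIM5 with ITGB1BP2 at 0.88. UTRN had r = -0.69 with PLS3, -0.62 with ITGB1BP2 and -0.41 with PDLIM5. These values describe libraries that share rabbits, flow and layer. Among 8702 genes compared, those with the pattern most like PLS3 were MYO1E (r = 0.954), a myosin of class I, LIMS1 (r = 0.952), an adaptor of the integrin-linked kinase, and ATP5PF (r = 0.951), a subunit of the mitochondrial ATP synthase. LIMS1 had 147 to 280.0 CPM in sham and 380.2 to 711 CPM in ligated libraries, without overlap. For PDLIM5 they were PPP2CB (r = 0.968), a catalytic subunit of protein phosphatase 2A, PRICKLE2 (r = 0.946) and FERMT2 (r = 0.945). FERMT2 had 461 to 1303 CPM in sham and 993 to 3335 CPM in ligated libraries.

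For ITGB1BP2 the nearest patterns were those of CRYAB (r = 0.962), the small heat shock protein alpha-B crystallin, ZNF385D (r = 0.951) and CACYBP (r = 0.948), which binds calcyclin. CRYAB had a median of 2829 CPM in sham and 10303 CPM in ligated libraries. For UTRN they were EFR3A (r = 0.929), RYR2 (r = 0.922), the ryanodine receptor of cardiac and some smooth muscle, and NR1D2 (r = 0.906), a nuclear receptor of the circadian clock. EFR3A had 78.8 to 253 CPM in sham and 27.1 to 60.4 CPM in ligated libraries, and NR1D2 401 to 707 CPM and 74.96 to 238 CPM, both without overlap. By rank, RYR2 was less like UTRN, with Spearman's rho of 0.80, in place 72 of all genes compared.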

How the data were processed

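The data were RNA-seq counts for 2 layers at 2 locations in 4 rabbits (16 libraries). The authors amplified the RNA by SMART-Seq v4 and prepared Nextera libraries, and their reads were aligned to OryCun2.0 (STAR), filtered for unique mapping and assigned to exons (featureCounts 1.6.2). The files deposited hold unnormalized counts, 1 row per gene symbol. They counted with the strand-specific setting (-s 2), although the kit does not mark strand, and whether this lowered the counts was not tested. Without strand, reads of a gene and of an antisense partner cannot be told apart. An entry without a symbol (13.8% to 18.7% of counts) was left out.

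The 4 genes, the panel and the marker lists were chosen with earlier results of these data known. Named panel genes had q < 0.05 with ligation, or were up to 3 per list with the largest layer differences past it, and close relatives were named in any case. For each of the 4 genes, the 3 genes of highest Pearson r were named.

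Ligated and sham libraries (2 and 2) were compared within each tissue by edgeR 4.0.16 in R 4.3.3 (TMM, quasi-likelihood F test in its older form) over genes with a mean above 1 CPM in a group. Layers were compared over 16 libraries with location and flow as terms. Levels are CPM with TMM factors over 16 libraries. Ligated and sham animals were different rabbits and could not be paired. Both layers came from the same animal, and their percentages were taken within pairs of a rabbit and location. The main fit between layers did not use these pairs, which were a block only in an alternative fit. The 8 pairs and 16 libraries came from 4 rabbits and were not independent animals. Deviations from the group means of the layers correlated at r = 0.22 (BA, sham), -0.03 (BA, ligated), 0.08 (BT, sham) and 0.01 (BT, ligated). Alternatives were RLE scaling, library size alone, all genes with a count, DESeq2 1.42.0, a fit per layer, the pairs as a block, sham or ligated libraries alone, and leaving out each rabbit. The fits were tested on simulated data, in which the share of false calls was above the q-value threshold in all 4 ligation comparisons, so calls near the threshold are less certain than their q-values state. Gene lengths were not used here, so levels of different genes were not compared per length. A panel gene called between the layers is not reported here.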

Additional observations from a re-analysis of the deposited data

How the results depend on the processing

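All 144 recomputed ligation differences of the 4 genes kept their sign. Nothing is read from this, since ligated and sham libraries of these chosen genes did not overlap in any tissue. Leaving out a rabbit could therefore hardly turn a sign. Of 188 recomputed differences, 174 moved by less than 1 SD, taken between rabbits of a group for ligation and over the 8 pairs for the layers. This limit came from the spread of the same rabbits, so the count is no independent measure of stability. Leaving out 1 rabbit moved some ligation differences past it, as for PLS3 in the BA intima, from 2.85 to 2.30 without rabbit 5. For the layers the limit was wide, and the layer difference of UTRN turned its sign within it. With 2 rabbits per group, counts of calls depended on the setting. The cause was not tested. The quasi-likelihood test called 0 genes in the BA intima, against 123 over all genes with a count, 122 with DESeq2 and 0 to 124 with a rabbit left out. The BT intima gave 0, against 346, 613 and 0 to 113. For the BA media it called 71, against 507, 508, 0 to 2, and 212 in a fit over the layer. For the BT media it called 204, against 557, 594 and 13 to 638. Scaling by library size alone turned the 38 higher and 33 lower genes of the BA media into 30 and 47, the 100 and 104 of the BT media into 125 and 66, and the 404 and 319 between layers into 634 and 177, and the median of all genes in the BT media from 0.03 to 0.17 and in the BA media from -0.14 to -0.29. Of the 4 genes, 0 were called in the BA intima, against 2 over all genes with a count, 2 with DESeq2 and 0 to 2 with a rabbit left out, and 0 in the BT intima, against 1, 1 and 0 to 1. The 4 in the BA media became 0 with any rabbit left out, and the 3 in the BT media 0 to 3 with a rabbit left out. Of the panel, 0 were called in the BA intima, against 1 over all genes, 2 with DESeq2 and 0 with any rabbit left out. DESeq2 called 1 in the BT intima. For the BA media, 1 was called, against 8 over all genes, 8 with DESeq2, 5 in a fit over the layer, 2 with RLE scaling and 0 with any rabbit left out. For the BT media, 5 were called, against 10, 11 and 0 to 10. Between layers 723 genes were called, against 1298 with DESeq2, 242 in ligated libraries, 0 in sham libraries and 93 to 839 with a rabbit left out. The panel's 14 became 9 with library size alone, 8 in ligated libraries, 0 in sham libraries and 3 to 14 with a rabbit left out.

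With library size alone, the log2 difference in the BA media was 2.72 for PLS3 and 2.07 for PDLIM5, and in the BT media 1.80 for PLS3. With a rabbit left out, the BA intima gave 2.30 to 3.24 for PLS3, 0.67 to 1.19 for PDLIM5, 1.75 to 3.06 for ITGB1BP2 and -1.92 to -0.89 for UTRN. For the BT intima the values were 1.52 to 3.10 for PLS3, 0.96 (without rabbit 6) to 2.25 (without rabbit 3) for ITGB1BP2 and -1.36 to -0.59 for UTRN. The ends of -0.89 and -0.59 for UTRN came without rabbits 3 and 4. Medial values at the BA were 2.12 to 2.32 for PDLIM5 and -2.40 to -1.65 for UTRN. Those at the BT were 1.52 to 1.74 for PLS3, 1.72 to 3.05 for ITGB1BP2 and -2.85 to -2.50 for UTRN. With the rabbit-location pair as a block, 786 genes were called between layers and the log2 differences were -0.48 for PLS3, -1.08 for PDLIM5, -1.33 for ITGB1BP2 and -0.12 for UTRN. The block turned no sign of the 4 genes.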
